A study of Mus musculus with 32 samples.

Results

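The insulin-like growth factor (IGF) axis was followed in lung RNA through 9 genes, chosen by symbol: the ligand genes Igf1 and Igf2, the receptor gene Igf1r, and the binding protein genes Igfbp2, Igfbp3, Igfbp4, Igfbp5, Igfbp6 and Igfbp7. They are 9 of the 35275 genes in the count table, and all 9 passed the filter on low counts in both experiments. The series holds 32 poly(A) libraries of lung tissue from C57B/6 mice, which the labels put into 8 groups. In the first experiment the mice had no surgery, and the groups were males in room air (3 libraries), females in room air (3), males in cigarette smoke (5) and females in cigarette smoke (5), all with an exposure of 5 months. In the second experiment every mouse was a female exposed to cigarette smoke after sham surgery or ovariectomy (removal of the ovaries), for 3 months (3 libraries of each surgery) or 5 months (5 of each). It held no group in air and no males. The ages of the mice are not given in the labels, and lung tissue holds many cell types, so fewer cells of a type and less RNA per cell cannot be told apart. Nothing in the labels ties a library to its own animal, so the p-values measure only how libraries of a group spread, which may be technical.

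IGF1 and IGF2 are secreted growth factors that signal through the IGF1 receptor, a tyrosine kinase at the cell surface. Most of the ligand in body fluids is held by binding proteins, which lengthen its life and keep it from, or carry it to, the receptor, and which are themselves cut by proteases such as pappalysins and HTRA1. The liver is the main source of circulating IGF1, while in the lung fibroblasts and macrophages also make it. Igfbp2 is used as a marker of mature alveolar type 1 cells, the flat cells of the gas-exchange surface. Igfbp7 differs from the others in binding IGFs weakly and is abundant in vessel walls.

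Total counts lay between 13790052 and 24497332 per library. CPM here means the count divided by the library total (scaled by TMM within an experiment), in CPM units, and TPM is the deposited value per gene length, the scale on which levels of different genes can be compared. Lung markers were high in every library: the summed level of 9 alveolar type 2 genes, surfactant genes among them, lay between 31818 and 49119 CPM. Liver transcripts set some libraries apart: Alb, the albumin gene, exceeded 100 CPM in 7 of 32 libraries. These were male air replicate 1, female air replicate 2, ovariectomized replicates 2 and 3 at 3 months, sham replicates 1 and 2 at 5 months and ovariectomized replicate 5 at 5 months. Results that change without these 7 libraries are given with and without them. Airway content also varied, with 8 airway genes summing to between 5546 and 41041 CPM over the libraries. The sum was 29119 to 41041 CPM in female air and 10243 to 30347 CPM in female smoke. In males it was 12321 to 33986 CPM in air and 6257 to 36999.6 CPM in smoke. All libraries of the second experiment lay between 5546 and 10621 CPM. Between smoke and air 0 of the 8 genes were called in either sex. The part of airway content in the results was not tested.

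Binding protein transcripts were far more abundant than those of the ligands and the receptor. By the median TPM over all 32 libraries, Igfbp2 came first at 1412 TPM and ranked 56 among all genes. Igfbp6 followed at 1256 TPM, Igfbp7 at 901 TPM and Igfbp5 at 644 TPM. Igfbp4 (138 TPM) and Igfbp3 (105 TPM) formed a middle tier, and Igf1r (13.0 TPM), Igf1 (8.61 TPM) and Igf2 (5.70 TPM) the lowest one. The members also differed in how far they ranged. The mean of the highest group exceeded that of the lowest 4.14-fold for Igfbp2 (female air against ovariectomized at 5 months) and 3.56-fold for Igfbp5 (female air against sham at 5 months). The same ratio was 2.38 for Igf1 (male smoke against male air), 2.20 for Igfbp4, 1.92 for Igf2, 1.71 for Igf1r, 1.45 for Igfbp6, 1.29 for Igfbp7 and 1.27 for Igfbp3. Except for Igf1, the highest and the lowest group lay in different experiments. In those ratios the group and the experiment cannot be told apart.

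**Figure D1:**
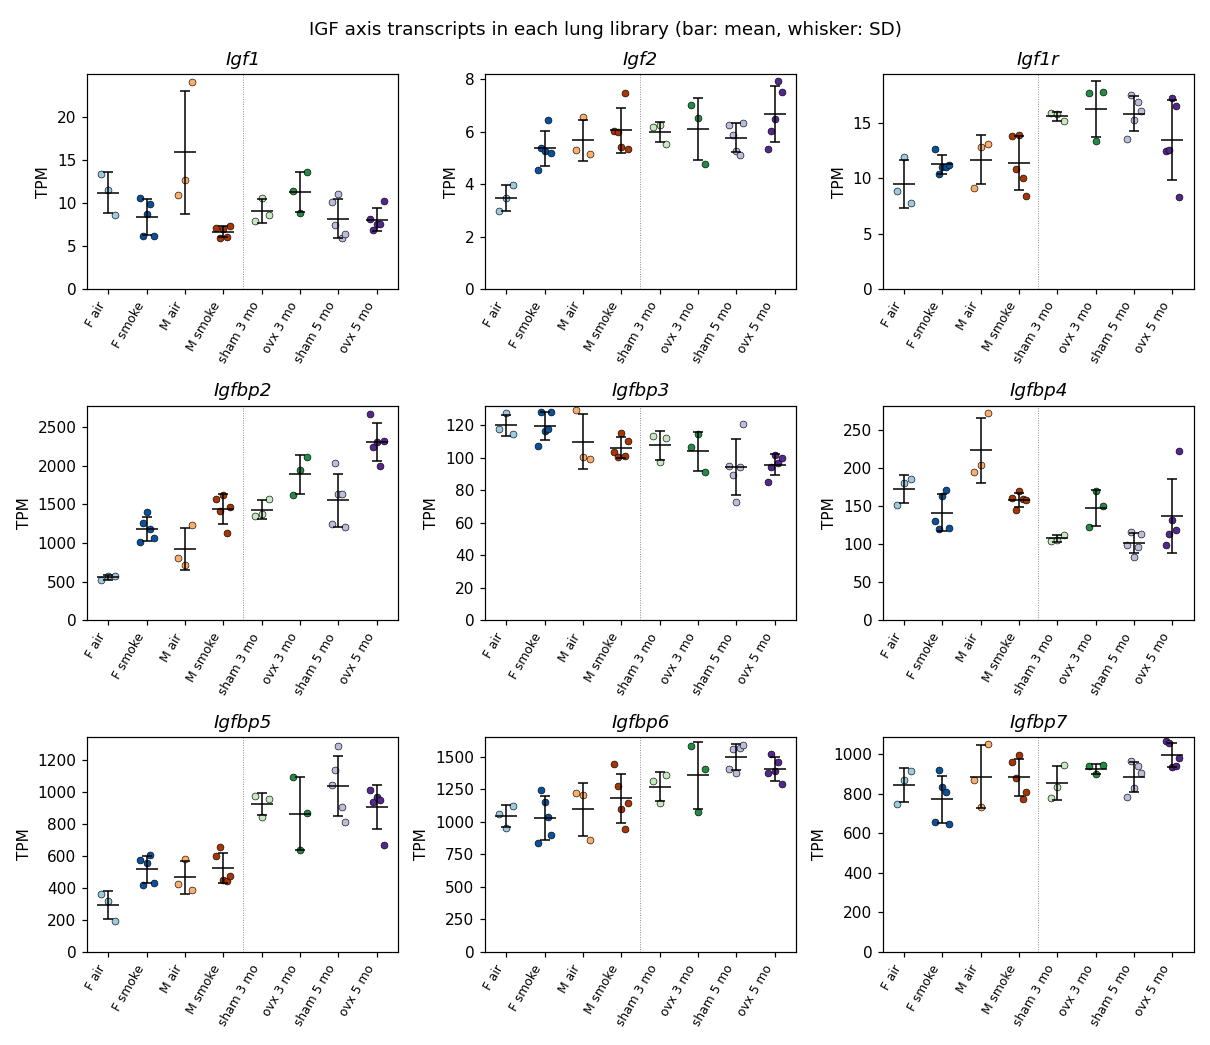
TPM of each of the 9 genes in each of the 32 libraries, by group (F, female; M, male; sham and ovx, female mice in smoke after sham surgery or ovariectomy; mo, months), with 1 point per library, the mean as a bar and the SD as a whisker; the dotted line parts the experiments. Igfbp2 ran from 557 TPM on average in female air to 2305 TPM in ovariectomized mice at 5 months. Igfbp3, Igfbp7 and Igfbp6 had the smallest ratios of highest to lowest group mean among the members (1.27, 1.29 and 1.45).

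Igfbp2 and Igfbp5 lie side by side on mouse chromosome 1, facing each other. In the coordinates of the deposited table (GRCm38), Igfbp2 is on the plus strand from 72824503 to 72852474 and Igfbp5 on the minus strand from 72857932 to 72874884, which leaves 5457 bases between their 3′ ends. Igf1 is on chromosome 10 from 87858265 to 87937042 on the plus strand, and Igfbp4 on chromosome 11 from 99041244 to 99054392 on the plus strand. The promoters of these genes are shown because they are the called members of the smoke comparisons apart from Igf2, which is left out for its low counts. Each window, from RefSeq on GRCm38.p6, covers 250 bases before and 50 after a RefSeq start site and is written 5′ to 3′ on the gene's strand, with capitals marking 3 motifs searched on both strands. The motifs were the TATA box TATAAA, the GC box GGGCGG, and the E-box CACGTG, which reads the same on both strands. Igfbp2 is taken at chr1:72824230-72824529 (plus strand), Igfbp5 at chr1:72874816-72875115 (minus strand), Igf1 at chr10:87860861-87861160 (plus strand) and Igfbp4 at chr11:99040994-99041293 (plus strand).
Igfbp2: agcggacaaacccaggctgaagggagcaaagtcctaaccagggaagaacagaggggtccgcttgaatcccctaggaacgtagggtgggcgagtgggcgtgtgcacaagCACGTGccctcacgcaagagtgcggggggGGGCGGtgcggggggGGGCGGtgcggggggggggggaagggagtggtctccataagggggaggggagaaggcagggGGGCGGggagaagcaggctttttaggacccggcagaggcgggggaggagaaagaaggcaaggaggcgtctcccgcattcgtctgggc
Igfbp5: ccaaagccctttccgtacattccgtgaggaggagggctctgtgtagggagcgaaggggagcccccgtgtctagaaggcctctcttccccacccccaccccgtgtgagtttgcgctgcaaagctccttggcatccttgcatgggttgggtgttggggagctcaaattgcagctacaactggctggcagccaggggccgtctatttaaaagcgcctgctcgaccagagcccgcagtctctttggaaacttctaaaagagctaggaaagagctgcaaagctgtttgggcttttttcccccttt
Igf1: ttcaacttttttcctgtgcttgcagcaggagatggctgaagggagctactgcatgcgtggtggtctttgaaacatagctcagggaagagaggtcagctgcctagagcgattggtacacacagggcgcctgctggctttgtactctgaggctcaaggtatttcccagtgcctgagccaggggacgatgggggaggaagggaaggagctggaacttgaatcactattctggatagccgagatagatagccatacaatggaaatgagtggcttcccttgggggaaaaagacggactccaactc
Igfbp4: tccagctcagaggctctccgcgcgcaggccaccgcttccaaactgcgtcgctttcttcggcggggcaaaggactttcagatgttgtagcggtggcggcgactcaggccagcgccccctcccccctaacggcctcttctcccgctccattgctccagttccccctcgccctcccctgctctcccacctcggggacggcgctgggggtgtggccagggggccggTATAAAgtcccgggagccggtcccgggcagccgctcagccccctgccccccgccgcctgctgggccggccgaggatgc
The Igfbp2 window held 3 GC boxes and an E-box that begins at position -142 relative to the start site, with a GC content of 67.0% and 18 CpG dinucleotides. A further RefSeq start site of Igfbp2, at 72825387, has a window with 57.3% GC, 14 CpG dinucleotides and none of the 3 motifs. The Igfbp4 window held a TATA box at position -28, with 71.3% GC and 27 CpG dinucleotides. Neither the Igfbp5 window (56.3% GC, 10 CpG) nor the Igf1 window (52.3% GC, 6 CpG) held any of the 3 motifs. The Igf1 window surrounds a RefSeq start site at 87861111, which lies inside the gene as deposited (from 87858265). No window at that deposited start was searched. Of 32851 mouse promoter windows of this length, 13.6% held the TATA box, 35.7% the GC box and 7.15% the E-box. These matches describe letters and not binding.

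Smoke exposure in females was examined by setting 5 smoke libraries against 3 air libraries. In both sexes the sample titles of the air and of the smoke libraries run in separate number series. A difference in handling that followed these series could not be told apart from smoke. Of the 9 members, 3 rose (Igfbp2, Igfbp5 and Igf2), 0 fell, and 6 did not pass an adjusted p of 0.05 by edgeR's quasi-likelihood test. Over all 16361 genes tested 7.7% were called, 4.52% higher and 3.18% lower in smoke. The median log2 fold change was −0.05 over the members and −0.01 over all genes.

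Igfbp2 was the member with the smallest p in females. It was at 339, 342 and 388 CPM in the air libraries and at 626, 785, 856, 708 and 682 CPM in the smoke libraries. The groups did not overlap: the lowest smoke library stood well above the highest air library. The fitted rise was 2.05-fold (log2 fold change 1.04, SE 0.13, 95% interval 0.76 to 1.31, adjusted p = 1.24e-04). It was called in each of the 8 fits that left out a library.

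Igfbp5, whose product is known to bind extracellular matrix as well as IGFs, was at 1094, 862 and 599 CPM in air and at 1625, 1197, 1543, 1667 and 1270.0 CPM in smoke. All smoke libraries lay above all air libraries, and air replicate 3 was the lowest of the experiment. The rise was 1.72-fold (log2 fold change 0.78, SE 0.20, adjusted p = 0.0250). The call ended without female air replicate 2 (adjusted p = 0.0859) or 3 (0.129), without female smoke replicate 1 (0.0510) or 4 (0.0548), without the libraries over 100 CPM of Alb (0.104), and without the filter on low counts (0.0559). Without the libraries over 100 CPM of Alb its log2 fold change was 0.78.

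Igf2, the growth factor gene that is imprinted and mostly fetal in mice, was low throughout, at 7.05, 7.39 and 9.70 CPM in female air and 10.2, 12.1, 11.5, 14.0 and 12.0 CPM in female smoke. The groups did not overlap, but the highest air and the lowest smoke library were close. The rise was 1.49-fold (log2 fold change 0.57, SE 0.17, adjusted p = 0.0387). The call was kept in 2 of the 8 fits that left out a library, and ended without female air replicate 1 (adjusted p = 0.155) or 2 (0.153) or any of female smoke replicates 2 (0.0623), 3 (0.0524), 4 (0.0878) and 5 (0.0578). It also ended without the libraries over 100 CPM of Alb (0.162). Counts for this gene were 145 to 372 per library, and the antisense transcript Igf2os, which overlaps it, had at most 23.

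The other members in females did not pass. Igfbp4 was at 292, 311 and 371 CPM in air and 236, 220, 292, 303 and 229.7 CPM in smoke, with overlap (log2 fold change −0.34, SE 0.11, adjusted p = 0.0628). Igf1 was at 47.1, 36.7 and 31.6 CPM in air and 35.5, 20.9, 28.8, 32.2 and 21.4 CPM in smoke, again with overlap (log2 fold change −0.47, SE 0.22, adjusted p = 0.228). For Igf1r, Igfbp3, Igfbp6 and Igfbp7 the log2 fold changes were 0.21, −0.05, −0.08 and −0.18, with adjusted p between 0.401 and 0.841.

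In males, 5 smoke libraries were set against 3 air libraries. Igfbp2 rose, Igf1 and Igfbp4 fell, and the other 6 members did not pass. Over all genes 10.3% were called, 4.93% higher and 5.33% lower in smoke. The median log2 fold change was 0.03 over the members and 0.01 over all genes.

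Igfbp2 was at 529, 450.2 and 714 CPM in male air and at 962, 866, 986, 768 and 959 CPM in male smoke. The smoke libraries all lay above the air libraries, among which replicate 3 was the highest. The rise was 1.61-fold (log2 fold change 0.69, SE 0.13, 95% interval 0.42 to 0.96, adjusted p = 0.00172), and it was called in each of the 8 fits that left out a library.

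Igf1 was at 38.3, 42.8 and 74.8 CPM in male air and at 23.5, 19.6, 22.9, 22.3 and 25.7 CPM in male smoke. The groups did not overlap, and the smoke libraries lay within a narrow band while air replicate 3 stood far above the other air libraries. Igf1 fell 2.28-fold (log2 fold change −1.19, SE 0.22, 95% interval −1.65 to −0.72, adjusted p = 0.00275). Without male air replicate 3 the log2 fold change was −0.84 (adjusted p = 0.00966), so the call did not rest on that library. The antisense transcript Igf1os overlaps the gene, and had at most 12 counts in a library.

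Igfbp4, whose product is known mainly as an inhibitor of IGF action that PAPPA cleaves, was at 372, 373 and 462 CPM in male air and at 288, 259, 305, 316 and 303 CPM in male smoke. The groups did not overlap, and air replicate 3 was again the highest. Igfbp4 fell 1.37-fold (log2 fold change −0.45, SE 0.11, adjusted p = 0.0112). Without male air replicate 3 the log2 fold change was −0.35 and the call ended (adjusted p = 0.0941).

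Among the members that did not pass in males, Igfbp5 was at 1274, 1664 and 1023 CPM in air and 1673, 1831, 1251, 1383 and 1427 CPM in smoke, with overlap (log2 fold change 0.20, SE 0.19, adjusted p = 0.607). Igf2 was at 12.4, 14.8 and 10.7 CPM in air and 13.3, 13.2, 11.9, 18.2 and 12.7 CPM in smoke (log2 fold change 0.13, SE 0.16, adjusted p = 0.689). For Igf1r, Igfbp3, Igfbp6 and Igfbp7 the log2 fold changes were between −0.02 and 0.13, with adjusted p of 0.702 or more.

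**Figure D2:**
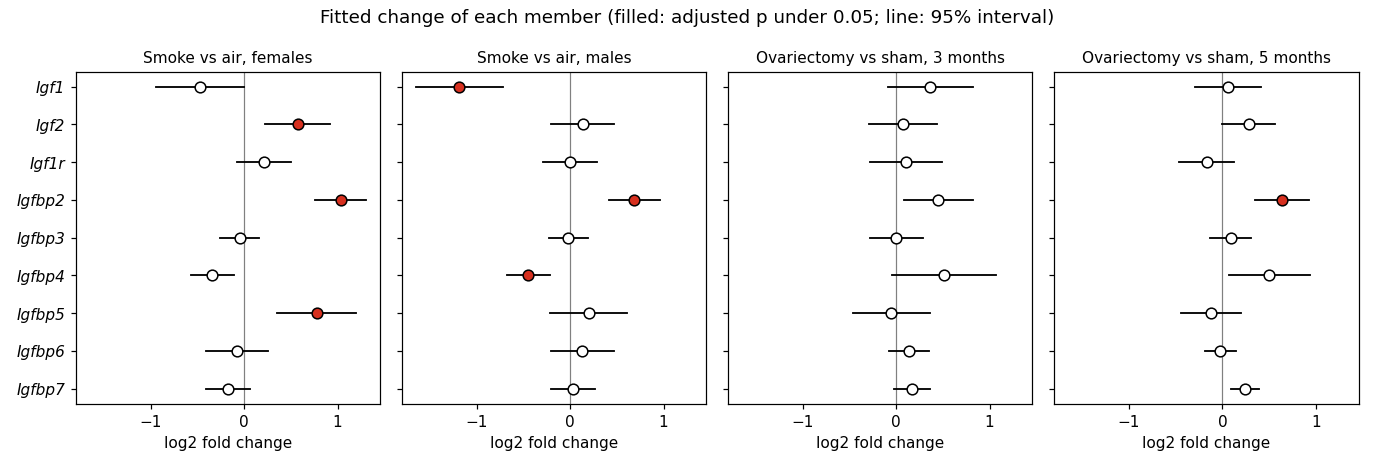
Fitted log2 fold change of each of the 9 genes in 4 comparisons, with its 95% interval; filled points have an adjusted p under 0.05. Igfbp2 is filled in both smoke comparisons and in ovariectomy at 5 months, at 1.04, 0.69 and 0.64, and Igf1 is the gene farthest to the left, at −1.19 in males.

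The difference between the sexes in these responses was tested directly as the interaction of sex and smoke. No member was called: 0 of 9 by edgeR (2 at an unadjusted p under 0.05), 0 by DESeq2 and 0 by limma, against 0.00611% of all genes by edgeR. The difference of log2 fold changes, males minus females, was −0.71 for Igf1 (95% interval −1.38 to −0.04, edgeR adjusted p = 0.854) and −0.58 for Igfbp5 (95% interval −1.16 to −0.00, edgeR adjusted p = 0.854). So a fall of Igf1 called in males and a rise of Igfbp5 called in females were not shown to differ between the sexes.

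Between males and females in air, 0 of 9 members were called by edgeR, with 0.177% of all genes called. An unadjusted p under 0.05 was reached by 4 members, each higher in males, DESeq2 called 1 (Igfbp2) and limma 0. Igfbp2 was higher in all 3 male than in all 3 female libraries (564 ± 136 against 357 ± 27.5 CPM, SD, n = 3 each; log2 fold change 0.66, SE 0.14, edgeR adjusted p = 0.0610). Igf2 was likewise higher in every male library (12.6 ± 2.05 against 8.04 ± 1.44 CPM, n = 3 each; edgeR log2 fold change 0.65, adjusted p = 0.222). Igfbp4 and Igfbp5 had log2 fold changes of 0.31 and 0.63. In smoke 0 of 9 members were called between the sexes by edgeR, DESeq2 or limma, with 0.189% of all genes called by edgeR, and 2 members reached an unadjusted p under 0.05. These were Igfbp2 (908 ± 90.9 CPM in males, 731 ± 90.0 CPM in females, SD, n = 5 each; log2 fold change 0.31, edgeR adjusted p = 0.488) and Igfbp7 (517 ± 34.5 against 444 ± 65.1 CPM, n = 5 each; log2 fold change 0.22, edgeR adjusted p = 0.626). The sex comparisons share libraries with the smoke comparisons.

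Ovariectomy was compared with sham surgery in smoke-exposed females. The sample titles of each surgery and time also run in a number series of their own, so the same limit holds here. At 5 months Igfbp2 rose and the other 8 members did not pass, with 1.36% of all genes called. Igfbp2 was at 742, 1246, 956, 973 and 724 CPM after sham surgery and at 1689, 1406, 1428, 1241 and 1469 CPM after ovariectomy. The groups met at their edges, where sham replicate 2 lay just above ovariectomized replicate 4, and were otherwise apart. The rise was 1.56-fold (log2 fold change 0.64, SE 0.14, 95% interval 0.35 to 0.93, adjusted p = 0.0361). The direction was the same in every fit, but the call was kept in only 2 of the 10 fits that left out a library (sham replicate 2 and ovariectomized replicate 4). It ended without sham replicate 1 (adjusted p = 0.0889), 3 (0.0777), 4 (0.0691) or 5 (0.0649), or ovariectomized replicate 1 (0.0888), 2 (0.0521), 3 (0.0662) or 5 (0.0649), and without the filter on low counts (0.0579). Without the libraries over 100 CPM of Alb it was kept, at a log2 fold change of 0.70 (adjusted p = 0.0266).

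Igfbp7 at 5 months was at 433, 549, 448, 519.6 and 502 CPM after sham surgery and at 626, 616, 540.0, 544 and 576 CPM after ovariectomy. Most ovariectomized libraries were higher, with overlap (log2 fold change 0.24, SE 0.07, adjusted p = 0.0868). DESeq2 called it (adjusted p = 0.0217). Igfbp4 had a log2 fold change of 0.50 (adjusted p = 0.248), and 1 library weighed on that value: ovariectomized replicate 5 was at 412 CPM while the other 4 were between 185 and 240.3 CPM, and without it the value was 0.26. The other 6 members had log2 fold changes between −0.17 and 0.28 and adjusted p of 0.322 or more.

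At 3 months, 3 ovariectomized and 3 sham libraries were compared, and 0 of 9 members were called by edgeR, DESeq2 or limma. Of all genes 0% were called by edgeR at an adjusted p under 0.05, 1568 had an unadjusted p under 0.05, DESeq2 called 93 and limma 1. Igfbp2 was the only member with an unadjusted p under 0.05. It was at 797, 803 and 919 CPM after sham surgery and at 955, 1216 and 1272 CPM after ovariectomy, without overlap (log2 fold change 0.45, SE 0.17, 95% interval 0.08 to 0.82, edgeR adjusted p = 0.452). Igfbp4 was at 181, 182 and 194 CPM after sham surgery and at 213, 312 and 267 CPM after ovariectomy, also without overlap (edgeR adjusted p = 0.569). For both genes the higher pair, ovariectomized replicates 2 and 3, were the libraries of that group over 100 CPM of Alb. Without them only ovariectomized replicate 1 is left, at 955 CPM of Igfbp2 and 213 CPM of Igfbp4. The part of liver RNA in these values was not tested.

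The effect of ovariectomy was not shown to differ between 3 and 5 months: 0 of 9 members were called by edgeR, DESeq2 or limma (0 at an unadjusted p under 0.05), with 0% of all genes called by edgeR (844 at an unadjusted p under 0.05, DESeq2 23, limma 0). For Igfbp2 the difference of log2 fold changes, 5 minus 3 months, had a 95% interval of −0.28 to 0.66. Between 5 and 3 months of smoke, averaged over both surgeries, 0 of 9 members were called by edgeR, DESeq2 or limma, with 0.13% of all genes called by edgeR. At an unadjusted p under 0.05 were Igfbp6 (755 against 665 CPM; log2 fold change 0.19, edgeR adjusted p = 0.194) and Igfbp2 (1187 against 994 CPM; log2 fold change 0.24, edgeR adjusted p = 0.368).

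Over the 8 groups, the order of the TPM means differed by gene. For Igfbp2 it ran, from high to low, ovariectomized at 5 months (2305 ± 243), ovariectomized at 3 months (1890.1 ± 249), sham at 5 months (1553 ± 339), male smoke (1442 ± 190.4), sham at 3 months (1432 ± 120), female smoke (1183 ± 157), male air (924 ± 276) and female air (557 ± 34.1). Only the last step, from male air to female air, separated neighbours without overlap of their libraries. For Igfbp5 the 4 groups of the second experiment came first, with means between 863 and 1036 TPM, then male smoke (523 ± 95.3), female smoke (515 ± 85.7), male air (464 ± 103) and female air (291 ± 88.8). Again only female air stood apart from its neighbour.

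Smoke-exposed females at 5 months were present in both experiments, and among the 9 members Igfbp5 differed most between them. In CPM, the libraries of the second experiment lay between 1826 and 3446 and those of the first between 599 and 1831. The CPM values were scaled within each experiment and not over both. Females at 5 months of smoke were at 1461 ± 213 CPM with no surgery and 2839 ± 500.3 CPM after sham surgery (SD, n = 5 each). In TPM these groups were at 515 ± 85.7 and 1036 ± 188. The surgery and the experiment cannot be told apart in that difference, so it was given no test. Igfbp4 went the other way, with 256 ± 38.2 CPM with no surgery and 179 ± 25.7 CPM after sham surgery (n = 5 each). Igfbp3 was at 137 ± 12.6 and 104 ± 19.7 CPM, Igf1r at 23.9 ± 1.86 and 32.5 ± 3.55 CPM, and Igfbp6 at 542 ± 87.5 and 761 ± 59.99 CPM in these groups.

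For Igf1 the order ran from male air (15.9 ± 7.12 TPM) through ovariectomized at 3 months (11.3 ± 2.34) and female air (11.2 ± 2.37) down to male smoke (6.69 ± 0.612), with overlap at every step. Igf2 ran from 6.66 ± 1.06 TPM in ovariectomized mice at 5 months to 5.36 ± 0.680 TPM in female smoke, with overlap between neighbours, and then dropped to 3.47 ± 0.488 TPM in female air, which stood apart. For Igfbp4 male air (224 ± 42.8 TPM) stood above female air (173 ± 18.3) without overlap, and sham at 5 months (102 ± 13.0) was lowest. Igf1r, Igfbp3, Igfbp6 and Igfbp7 had overlap between all neighbours in their order.

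The make-up of the binding protein pool differed between groups. Of the summed TPM of the 6 binding protein genes, Igfbp2 made up 18.4% ± 0.831 in female air, 24.8% ± 6.07 in male air, 31.4% ± 1.36 in female smoke and 33.6% ± 2.13 in male smoke (SD over libraries). It made up 30.5% ± 1.15 and 35.9% ± 5.54 after sham surgery and ovariectomy at 3 months, and 29.8% ± 3.68 and 39.4% ± 2.72 at 5 months. Igfbp5 made up 9.66% ± 3.14 in female air, 12.6% ± 3.36 in male air, 13.8% ± 2.67 in female smoke and 12.2% ± 1.67 in male smoke. Its share was 19.7% ± 1.14 and 16.2% ± 3.46 after sham surgery and ovariectomy at 3 months, and 20.05% ± 3.19 and 15.5% ± 2.05 at 5 months. The sum itself was 3029 ± 72.8 TPM in female air and 5846 ± 309 TPM in ovariectomized mice at 5 months, the lowest and the highest group.

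Alveolar type 1 markers moved with Igfbp2. Of 11 listed genes (Igfbp2 not among them) 6 rose and 0 fell in smoke-exposed females, with a median log2 fold change of 0.52, and 9 rose and 0 fell in males, with a median of 0.48. After ovariectomy at 5 months 1 rose, Pdpn, with a list median of 0.22. The summed level of the list was 10040.2 to 11942 CPM in female air, 12545 to 15408 CPM in female smoke, 10977 to 12100.3 CPM in male air and 13695 to 17472 CPM in male smoke. It was 14430 to 17065 CPM in sham and 16544 to 19106 CPM in ovariectomized mice at 3 months, and 15737 to 20534 CPM and 18902 to 21516 CPM at 5 months. None of the 11 was at 0 in all libraries of a group. The ratio of Igfbp2 to this sum was 0.0323 ± 0.00334 in female air and 0.0509 ± 0.00306 in female smoke, without overlap. In males it was 0.0492 ± 0.0139 in air and 0.0573 ± 0.00261 in smoke, where air replicate 3, at 0.0651, was above all smoke libraries. At 3 months it was 0.0534 ± 0.00254 after sham surgery and 0.0637 ± 0.00520 after ovariectomy, without overlap. The highest values there were those of ovariectomized replicates 2 and 3, which exceeded 100 CPM of Alb. At 5 months the ratio was 0.0517 ± 0.00763 after sham surgery and 0.0708 ± 0.00740 after ovariectomy. All ovariectomized libraries were above all sham libraries, but the groups nearly touched. The lowest ovariectomized library was at 0.0608 and the highest sham library at 0.0607. The part of type 1 cell number in the Igfbp2 results was not tested.

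**Figure D3:**
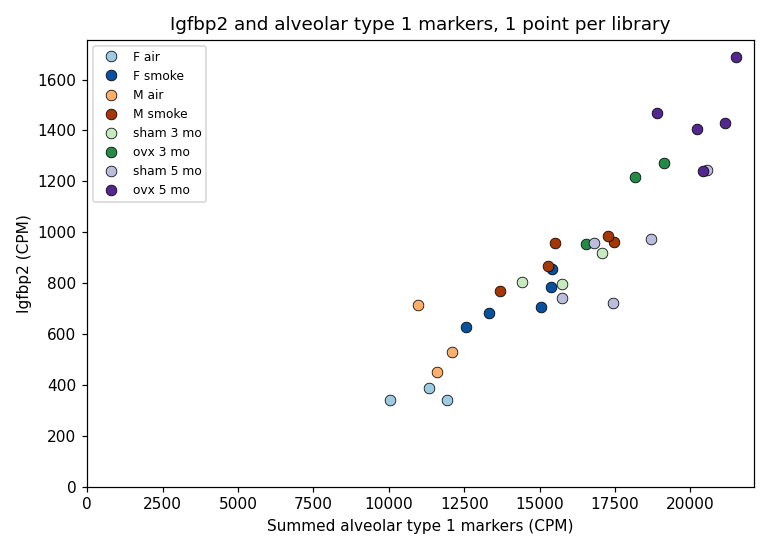
Igfbp2 (CPM, vertical) against the summed level of 11 alveolar type 1 marker genes (CPM, horizontal), with 1 point for each of 32 libraries, coloured by group. CPM was scaled within each experiment. Libraries high in the markers were high in Igfbp2, and male air replicate 3, at 714 CPM of Igfbp2 and a marker sum of 10977 CPM, lies above the other air libraries.

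Mesothelial markers were higher beside Igfbp5 in smoke-exposed females: 2 of 8 rose (Lrrn4 and Wt1), 0 fell, and the list median was 0.38. Their summed level was 1088 to 1329 CPM in female air and 1348 to 1571 CPM in female smoke. In males 0 of 8 were called, with 1114 to 1539 CPM in air and 1310 to 1774 CPM in smoke. In the second experiment, where Igfbp5 was highest, the sum was 1721 to 2304 CPM. The part of mesothelial cells in the Igfbp5 values was not tested.

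Markers of adventitial fibroblasts and vessels were lower beside Igf1 and Igfbp4, while those of alveolar fibroblasts were mixed. Of 9 adventitial fibroblast genes 3 fell in males and 5 in females and 0 rose, and the summed level was 5394 to 5667 CPM in male air, 4557 to 5527 CPM in male smoke, 4720.3 to 5653 CPM in female air and 3752 to 4314 CPM in female smoke. Of 9 alveolar fibroblast genes 1 rose (Limch1) and 3 fell in males, and 1 rose (Limch1) and 1 fell in females, with sums of 5014 to 6136 CPM in male air, 6106 to 6566 CPM in male smoke, 5108 to 5702 CPM in female air and 4620 to 5779 CPM in female smoke. Of 12 endothelial genes 11 fell in males and 9 in females and 0 rose. Their sum was 4525 to 6164 CPM in male air and 2939 to 3707 CPM in male smoke, and 4003 to 4959 CPM and 2830 to 3871 CPM in females. Of 8 interstitial macrophage genes 1 fell in males and 0 in females, with median log2 fold changes of −0.01 and −0.27. Their sums were 426 to 764 CPM in male air, 307 to 411 CPM in male smoke, 413 to 666 CPM in female air and 304 to 412 CPM in female smoke. Of 10 alveolar macrophage genes 1 rose (Ear1) and 0 fell in each sex, with medians of 0.30 in males and 0.31 in females. These summed to 634 to 937 CPM in male air and 706 to 1024 CPM in male smoke. In females the sums were 930 to 1415 CPM in air and 856 to 1354 CPM in smoke. None of these markers was at 0 in all libraries of a group. Their part in the changes of Igf1 and Igfbp4 was not tested.

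Liver transcripts also fell beside Igf1 and Igfbp4 in males, with 6 of 8 liver genes lower in smoke. Their summed level was 2.44 to 424 CPM in male air and 1.84 to 3.09 CPM in male smoke, where Fgb was at 0 in all libraries. Male air replicate 3, with the highest Igf1 and Igfbp4, had 1.78 CPM of Alb. Without the libraries over 100 CPM of Alb the fall of Igf1 in males was larger (log2 fold change −1.40, adjusted p = 0.00245), as was that of Igfbp4 (−0.54, adjusted p = 0.0121). That fit left out male air replicate 1 and kept replicates 2 and 3, so replicate 3 weighed more in the air mean. The part of liver RNA in these falls was not tested. Igfbp1, a binding protein gene known for its expression in liver, had counts above 0 in 6 of the 7 libraries over 100 CPM of Alb and in 2 of the other 25, with at most 37 counts and at most 3 respectively.

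**Figure D4:**
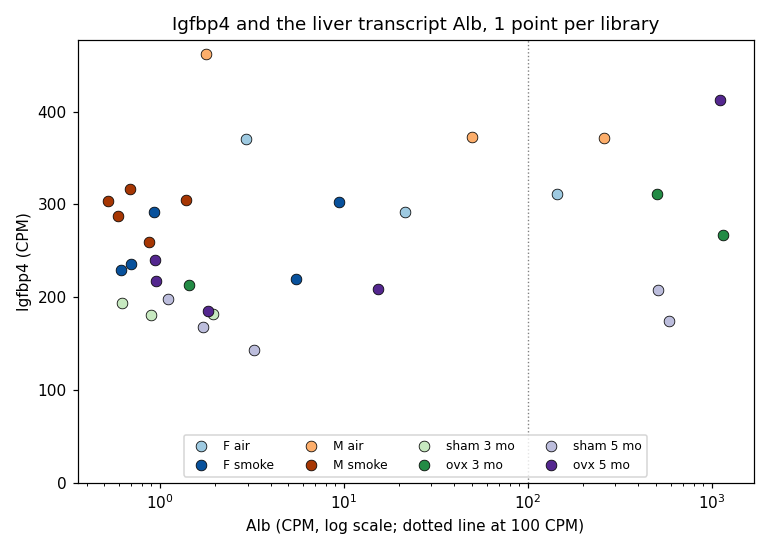
Igfbp4 (CPM, vertical) against Alb (CPM, horizontal, log scale), with 1 point for each of 32 libraries and a dotted line at 100 CPM of Alb. CPM was scaled within each experiment. In the second experiment the highest Igfbp4 values, 412 and 312 CPM, belong to libraries right of the line, while both sham libraries right of the line (174 and 208 CPM) lie with the others.

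Signs of RNA quality also differed between the groups compared. Of 9 mitochondrially encoded genes 4 rose in smoke in each sex, and their summed level was 14687 to 17298 CPM in female air, 18944 to 24592 CPM in female smoke, 14936 to 21325 CPM in male air and 18275 to 25408 CPM in male smoke. After ovariectomy at 5 months, where Igfbp2 was called, 1 of the 9 rose (mt-Co1), with sums of 17058 to 23416 CPM after sham surgery and 19918 to 26779 CPM after ovariectomy. The 2 nuclear-retained RNAs listed had a median log2 fold change of −0.78 in that comparison, and neither was called. They summed to 4525 to 6893 CPM after sham surgery and 2398 to 3761 CPM after ovariectomy, without overlap. Between smoke and air neither was called, with medians of 0.03 in females and 0.26 in males. Their part in the results was not tested.

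The rest of the pathway was described through 31 further genes: other receptors, adaptors, proteases of the binding proteins and their inhibitors, and downstream kinases and factors. In the first experiment 27 passed the filter. In females 1 rose and 3 fell (list median log2 fold change −0.14), and in males 1 rose and 5 fell (median −0.08), beside the shares of all genes given above. Foxo3, a transcription factor that IGF signalling holds out of the nucleus, fell in both sexes, from 143 ± 5.60 CPM in female air (n = 3) to 106 ± 12.2 CPM in female smoke (n = 5; log2 fold change −0.43, edgeR adjusted p = 0.0135). In males it went from 146 ± 22.8 CPM (n = 3) to 91.5 ± 9.93 CPM (n = 5; log2 fold change −0.67, edgeR adjusted p = 2.78e-04). Foxo1, a factor of the same family, fell by 0.32 on the log2 scale in females (adjusted p = 0.0436) and by 0.35 in males (adjusted p = 0.0205).

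The other called pathway genes passed in a single sex. Htra1, a protease that cuts binding proteins, rose in females (82.9 ± 4.94 to 103 ± 11.6 CPM, log2 fold change 0.31, edgeR adjusted p = 0.0383). Grb10, an adaptor that restrains the receptor, fell in females by 0.33 on the log2 scale (adjusted p = 0.0269). Grb14, a related adaptor, rose in males (57.1 ± 5.83 to 88.4 ± 8.09 CPM, log2 fold change 0.63, edgeR adjusted p = 1.80e-04). Stc1, which encodes a stanniocalcin, an inhibitor of pappalysins, fell in males by 0.84 on the log2 scale (adjusted p = 0.0284). Crim1, a membrane protein with an IGF binding protein motif, fell in males by 0.26 (adjusted p = 0.0330), and the kinase gene Akt1 by 0.22 (adjusted p = 0.0482). Of these 10 calls, those of Foxo3 and Grb14 in males held in each of the 8 fits that left out a library. In females Foxo3 ended without air replicate 3 (adjusted p = 0.0564), Grb10 without air replicate 1 or 2 or smoke replicate 4 (up to 0.129), Foxo1 without any air library or smoke replicate 1, 3 or 5 (up to 0.112), and Htra1 without any air library or smoke replicate 2, 3 or 4 (up to 0.165). In males Foxo1 ended without air replicate 3 (0.0899), Crim1 without air replicate 2 or 3 or smoke replicate 1 or 5 (up to 0.218), Akt1 without air replicate 2 or 3 or smoke replicate 1, 2, 4 or 5 (up to 0.157), and Stc1 without air replicate 2 or 3 or smoke replicate 1, 3 or 4 (up to 0.139). On log2(TPM + 1), limma called 0 of the list in females and 3 in males. In the other 7 comparisons edgeR and limma called 0 of these genes, with 0 to 9 at an unadjusted p under 0.05 by edgeR, and DESeq2 called 1 between the sexes in smoke (Esm1) and 1 in ovariectomy at 5 months (Igf2bp3), both named after their values were seen.

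Within groups, members were compared over the 32 libraries after the mean of each group had been taken out. Of 36 pairs, 1 passed the Benjamini-Hochberg adjustment: Igfbp2 and Igfbp7 varied together (Pearson r = 0.68, permutation p = 2.20e-04, adjusted p = 0.00792; Spearman rho = 0.72, permutation p = 9.00e-05, adjusted p = 0.00324). Without the 2 libraries farthest from the median r was 0.62, and within the experiments r was 0.77 (first) and 0.62 (second). Igfbp2 and Igfbp5, the chromosomal neighbours, were not among the pairs that passed. Igf1 and Igfbp3 had r = −0.62 (permutation p = 0.00512, adjusted p = 0.0614).

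The genes whose log2 CPM was most like that of a member over all 32 libraries were found among 12372 genes, as a description without a test, since the libraries share experiment, group and make-up. For Igfbp2 these were Cldn18 (r = 0.94, and 0.90 and 0.89 within the first and second experiment) and Rcan2 (0.93). For Igfbp5 they were Sulf1 (r = 0.96, and 0.86 and 0.88 within experiments), Lrrn4 (0.96) and Ildr2 (0.94). For Igfbp4 they were Col18a1 (r = 0.90, and 0.88 and 0.82 within experiments), Cnn3 (0.90) and Nt5dc2 (0.90). For Igf1 they were Col3a1 (r = 0.80, and 0.91 and 0.60 within experiments), Adamts9 (0.78) and Ltbp1 (0.76), and for Igf1r Zfp445 (0.88, and 0.74 and 0.84 within experiments), Syne2 (0.87) and Tnrc18 (0.85).

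The remaining members were compared in the same way. Igfbp3 was most like Tcf21 (r = 0.80, and 0.56 and 0.79 within experiments), Hoxb5 (0.78) and Nsg1 (0.77). Igfbp6 was most like Hopx (r = 0.81, and 0.74 and 0.64 within experiments), Spink2 (0.80) and Rplp1 (0.80). Igfbp7 was most like Sparc (r = 0.78, and 0.70 and 0.86 within experiments), Manbal (0.78) and Mtch1 (0.76), and its 3′ end overlaps that of Polr2b, which had 699 to 1370 counts per library. Igf2 was most like Pf4 (r = 0.74, and 0.82 and 0.49 within experiments), Necab3 (0.72) and Enpp5 (0.69).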

How the data were processed

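Per the labels' protocols, Trizol was used to isolate total lung RNA, and the library kit was NEBNext Ultra 2 RNA. The authors deposited whole-number read counts per Ensembl gene (35275 genes) and a normalized table (35186 genes). Its unit is not named in its header: the deposited values were taken as TPM because 100% of them equal the count divided by gene length and scaled to the TPM total, within a tolerance of 1e-06. Per the submitters' processing notes, FastQC and the builds GRCm38 and mm10 were used. Not given in the sources used here are the aligner, the counting program and whether counting used strand, so reads of overlapping antisense genes cannot be told apart.

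Groups follow the labels. The counts of each experiment were fitted with edgeR 4.0.16 in R 4.3.3: filterByExpr, TMM, 1 mean per group, robust quasi-likelihood F test, and Benjamini-Hochberg adjustment over all 16361 (first experiment) or 16874 genes (second). The call threshold was an adjusted p of 0.05. The procedure was also run on simulated counts for pairs of groups, with seeded changes of a single size. That size was larger than several changes called here, so the run does not show how well those are recovered. Of 496 pairs of libraries none was a near copy (lowest chi-square per degree of freedom 8.99). Alternatives were the replicate number as a block, RLE scaling, every gene with a count kept, DESeq2 1.42.0, limma 3.58.1 on log2(TPM + 1), leaving out libraries over 100 CPM of Alb, and leaving out each library in turn. Correlations used 100000 permutations within groups.

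The 9 members and all gene lists were chosen with earlier results of these data known. All members are named in every comparison, together with each further pathway gene called and the 3 genes most like a member, apart from 1 that is not reported here. Lists are described by counts, medians and summed CPM, with no list test. With 3 or 5 libraries per group, the number of libraries and the depth of 13790052 to 24497332 counts limit the precision. The figures were made in matplotlib 3.10.9 under Python 3.11.15.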

Additional observations from a re-analysis of the deposited data

Results flagged for a closer look

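Of 36 sets of 5 libraries (each member in each group of that size), 3 held a library far from the other 4, where chance alone gives about 1 in 20. In male smoke, Igf2 was at 18.2 CPM in replicate 4 and between 11.9 and 13.3 CPM in the others. In ovariectomized mice at 5 months, replicate 5 was at 412 CPM of Igfbp4, with the others between 185 and 240.3 CPM. The same library was at 1933 CPM of Igfbp5, with the others between 2702 and 2941 CPM. It also held 1113 CPM of Alb, while the others of its group held at most 15.4 CPM. The part of liver RNA in these values was not tested.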

How the results depend on the processing

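The rise of Igfbp2 in smoke in both sexes and the fall of Igf1 in males were called under every alternative run. Alternatives were tallied for all members in both smoke comparisons, and elsewhere only for members with an unadjusted p under 0.05 by edgeR. Of these 480 values of single members, 433 kept their direction and side of the threshold, 24 lost the call, 10 gained it and 13 changed sign. The number of members called in smoke-exposed females, 3 as reported, was 1 without the libraries over 100 CPM of Alb, 2 without a filter and 4 with DESeq2, and from 1 (without female air replicate 2) to 3 when a library was left out. In males it was 2 to 3. Between the sexes in air it was 0 as reported but 1 without a filter, with DESeq2 and with the replicate block, and 0 to 1 with a library left out. For ovariectomy at 5 months it was 1 as reported, 0 without a filter, 2 with DESeq2, and 0 to 2 with a library left out. For the other comparisons it was 0 throughout.

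The labels do not say what a replicate number shares. In 0 of 12 pairs of groups were all same-numbered deviations correlated above 0.1, and in 2 every library correlated best with its own number. The replicate block ended the call of Igf2 in females (adjusted p = 0.0900) and added Igfbp4 there (0.00679) and Igfbp2 between the sexes in air (0.0248).

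Every change of sign among the tallied values was of a log2 fold change near 0 that was not called. In males Igf1r (as reported −0.00) was 0.067 with the block and from −0.155 to 0.074 when a library was left out. Igfbp3 was 0.125 without the libraries over 100 CPM of Alb and from −0.137 to 0.125 with a library left out, Igfbp6 from −0.062 to 0.219, and Igfbp7 from −0.110 to 0.111. In females Igfbp6 ran from −0.203 to 0.013.

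The count of all genes called moved more. In females it was 1259 as reported, 801 without female air replicate 2, 490 without replicate 3 and 789 with limma. In males it was 1678, 962 without male air replicate 3 and 992 with limma. For ovariectomy at 5 months it was 230, from 39 to 259 with a library left out, 111 without the libraries over 100 CPM of Alb and 602 with DESeq2. For the sexes in air it was 29, from 10 to 42 with a library left out, 44 with the block, 15 with limma and 133 with DESeq2. For the sexes in smoke it was 31, 20 without female smoke replicate 1 and 63 with DESeq2. The interaction of sex and smoke gave 1, and 0 to 4 with a library left out, 0 with the block or limma and 17 with DESeq2. Ovariectomy at 3 months gave 0, and up to 6 with a library left out, 3 without a filter, 10 with the block, 1 with limma and 93 with DESeq2, and its interaction with time 0 and 23 with DESeq2. For 5 against 3 months it was 22, from 2 to 125 with a library left out, 85 without a filter, 74 with the block, 135 without the libraries over 100 CPM of Alb, 11 with limma and 482 with DESeq2. The cause of these moves was not tested.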
